A study of Mus musculus with 6 samples.

Results

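Accessible chromatin was described around 8 genes that encode formative transition factors, Otx2, Pou3f1, Zic1, Zic2, Zic4, Zic5, Tcf15 and Utf1, in untreated mouse embryonic stem cells. The regions were the ATAC-seq peaks that overlap the RefSeq span of each gene widened by 50 kb on either side, on the mm10 (GRCm38.p6) build. They numbered 71 of the 77629 peaks in the library, in 6 loci that together span 673.6 kb. The windows of Zic1 and Zic4 on chromosome 9 overlap, as do those of Zic2 and Zic5 on chromosome 14, and each peak is counted once in the total.

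ATAC-seq uses Tn5 transposase, which cuts accessible DNA and attaches adapters there, and places with many cuts are called as peaks. The study has 6 groups of 1 sample, all from E14 cells (a mouse embryonic stem cell line) with an NSD1-dTAG knock-in, which lets the compound dTAG-13 direct the histone H3 lysine 36 methyltransferase NSD1 to degradation. The library analysed here came from cells at 0 h of dTAG-13 that received no treatment and were grown on gelatin in 2i/LIF medium, which contains a MEK inhibitor, a GSK3 inhibitor and leukemia inhibitory factor. The other 5 samples (500 nM dTAG-13 for 1, 6 or 24 h, and day 6 embryoid bodies either treated or left without the compound, by their titles) were not analysed here, so every value describes tagged cells not given dTAG-13. The treatment labels of the samples titled 1 h and 24 h both give 6 h. The sources used here do not say whether the line is a single clone. There are no replicates and no test between conditions was possible.

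Embryonic stem cells in 2i/LIF are held in the naive state of the preimplantation epiblast. When the inhibitors are withdrawn, naive regulators are shut down and the cells pass through a formative state, in which they become able to form the germ layers. OTX2 and POU3F1 (also called OCT6) are known to take part in that switch, with OTX2 helping to bring OCT4 to new enhancers. ZIC proteins are zinc finger factors of the early epiblast and, later, of the nervous system, and their genes lie in head-to-head pairs. TCF15 is a basic helix-loop-helix factor of pluripotent cells that are becoming primed to differentiate, and of the paraxial mesoderm. UTF1 is a chromatin-bound protein of pluripotent cells.

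The promoters of these genes differ in sequence and in accessibility, and the windows below show both. RefSeq windows of 300 bases, 250 before to 50 after an annotated start on GRCm38.p6, were found for 5 of the 8 genes (Otx2 with 4 starts, and Zic1, Zic4, Zic5 and Utf1 with 1 each). They are printed 5′ to 3′ on the gene's strand with CpG dinucleotides in capitals, because CpG content goes with promoter accessibility across this library. Utf1 and Zic5 are shown as the windows that a peak overlapped, Zic1 and Zic4 as the windows of a head-to-head pair that none overlapped, and Otx2 by its outermost start and by the start richest in CpG.
Utf1, chr7:139943606-139943905, plus strand: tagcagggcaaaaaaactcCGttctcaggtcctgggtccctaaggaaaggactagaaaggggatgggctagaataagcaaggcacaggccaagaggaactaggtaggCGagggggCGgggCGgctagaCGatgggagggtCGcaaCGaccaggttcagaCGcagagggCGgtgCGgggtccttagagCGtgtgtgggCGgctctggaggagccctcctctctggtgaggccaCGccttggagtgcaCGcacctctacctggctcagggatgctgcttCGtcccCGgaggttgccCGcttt
Zic5, chr14:122465609-122465908, minus strand: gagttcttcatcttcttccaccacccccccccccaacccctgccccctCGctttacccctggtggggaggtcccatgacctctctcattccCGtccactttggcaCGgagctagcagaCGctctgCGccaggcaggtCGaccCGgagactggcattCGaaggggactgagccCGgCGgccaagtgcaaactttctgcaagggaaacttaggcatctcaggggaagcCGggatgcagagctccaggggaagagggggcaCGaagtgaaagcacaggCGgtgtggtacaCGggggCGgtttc
Zic1, chr9:91365719-91366018, minus strand: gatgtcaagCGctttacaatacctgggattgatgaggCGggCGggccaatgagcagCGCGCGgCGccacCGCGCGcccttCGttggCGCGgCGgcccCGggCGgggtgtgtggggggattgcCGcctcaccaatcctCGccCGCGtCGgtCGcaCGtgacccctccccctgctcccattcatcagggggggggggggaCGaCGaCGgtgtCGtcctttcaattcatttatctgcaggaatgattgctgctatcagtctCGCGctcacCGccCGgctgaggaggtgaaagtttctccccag
Zic4, chr9:91368722-91369021, plus strand: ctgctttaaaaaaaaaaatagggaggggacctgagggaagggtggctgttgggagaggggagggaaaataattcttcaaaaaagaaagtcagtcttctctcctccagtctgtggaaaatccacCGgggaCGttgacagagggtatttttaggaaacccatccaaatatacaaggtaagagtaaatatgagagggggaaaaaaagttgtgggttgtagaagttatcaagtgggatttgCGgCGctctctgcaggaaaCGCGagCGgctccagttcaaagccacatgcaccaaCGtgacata
Otx2, outermost start, chr14:48667595-48667894, minus strand: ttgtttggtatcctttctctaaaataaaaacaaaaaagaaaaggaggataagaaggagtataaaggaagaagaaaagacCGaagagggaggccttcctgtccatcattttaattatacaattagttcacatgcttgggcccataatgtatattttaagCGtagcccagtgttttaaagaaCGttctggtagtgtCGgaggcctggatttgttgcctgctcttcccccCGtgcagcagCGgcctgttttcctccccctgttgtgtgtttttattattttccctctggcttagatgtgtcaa
Otx2, inner start, chr14:48665060-48665359, minus strand: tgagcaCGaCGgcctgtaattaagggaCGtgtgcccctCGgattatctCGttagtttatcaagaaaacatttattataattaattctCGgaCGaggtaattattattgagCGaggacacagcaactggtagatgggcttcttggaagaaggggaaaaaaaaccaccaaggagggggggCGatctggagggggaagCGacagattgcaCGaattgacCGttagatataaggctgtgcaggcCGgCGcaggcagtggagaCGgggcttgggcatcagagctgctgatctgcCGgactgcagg

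Peaks overlapped 2 of the 8 windows of these genes, against 46.9% of all 32851 promoter windows. Otx2 alone supplies 4 of the 8. Pou3f1, Zic2 and Tcf15 have no window and are left out, although their start peaks had pileups of 69, 112 and 75. The share therefore does not describe the 8 genes as a set. The Utf1 window holds 17 CpG and the Zic5 window 15, and both were overlapped. The Zic1 window holds 31 CpG, the most among the 5 genes with windows, and the nearest peak ended 277 bp short of it. Across all windows with 30 or more CpG, 98.4% were overlapped by a peak, and Zic1 was among the 62 of 3837 that were not. The inner Otx2 window has 16 CpG and lay 693 bp from the nearest peak, while 92.0% of all windows with 15 to 19 CpG were overlapped. The other Otx2 windows hold 6, 8 and 11 CpG and that of Zic4 holds 8, counts at which accessibility is less common: 28.1% of windows with 5 to 9 CpG and 69.9% of those with 10 to 14 were overlapped.

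**Figure D1:**
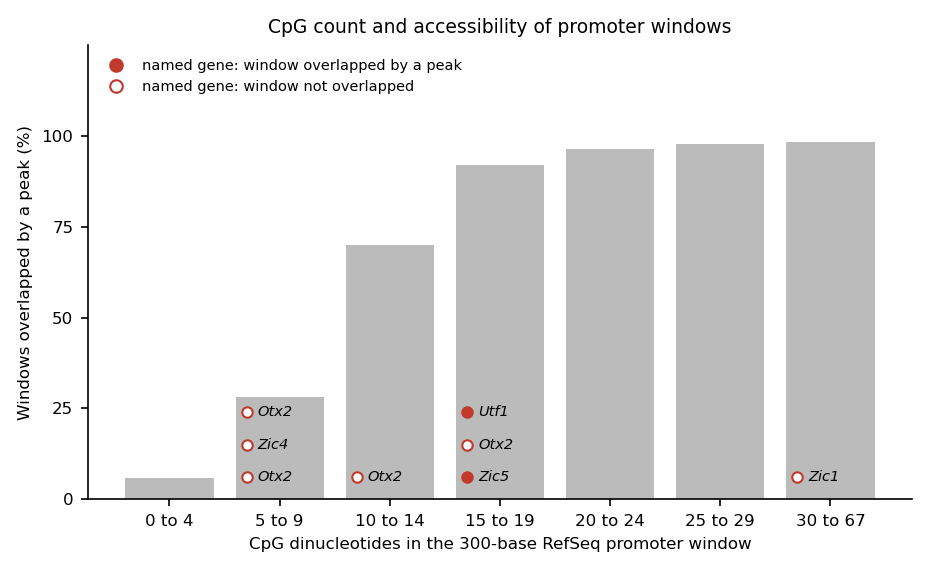
Share of all RefSeq promoter windows overlapped by a peak (bars, %) by the number of CpG in the 300-base window. Circles place the 8 windows of the formative factors in their CpG class, filled where a peak overlapped the window, and their height has no meaning. The filled circles are Utf1 and Zic5 at 17 and 15 CpG, and the open circle at the far right is Zic1 at 31.

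Short motifs were counted on both strands of the same windows. The GC box GGGCGG, which SP and KLF factors bind, occurs 4 times in the Utf1 window, starting 138, 133, 85 and 56 bases upstream of the start, and the first 2 copies adjoin with 1 shared base. It occurs 3 times in the Zic1 window and 1 time in that of Zic5, and in 35.7% of all windows. The Zic1 window also has 2 copies of CCAAT (37.4% of all windows), which 1 Otx2 window holds too, and the E-box CACGTG (7.15%). The bicoid-type homeodomain motif TAATCC, the kind OTX2 itself binds, was found in the inner Otx2 window alone among these 8 (7.06% of all windows), 211 bases upstream. A TATAAA lies in the outermost Otx2 window (13.6%), CATTCC in those of Zic1 and Zic5 (14.7%), and CTTTGA in that of Zic4 (5257 of the 32851 windows). The octamer letters ATGCAAA (4.63%) and the ZIC letters CCTGCTG (10.5%) occur in none of the 8. GGGCGG contains CpG, so its presence and the CpG count overlap.

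At the annotated starts, 7 of the 8 genes had a peak within 1 kb, against 66.7% of the 21883 protein-coding genes. Where the tables used here give no strand (Pou3f1, Zic2 and Tcf15), both annotated ends of the gene were used, for these genes and for all others alike. Height is given as the summit pileup, which counts the reads or fragments covering the highest point of a peak, recovered from the deposited values, with an exact Poisson 95% interval that covers counting error only. The median pileup of the 7 start peaks was 74, beside 67 over all protein-coding genes with a start peak, and the 7 ranged from 29 to 113. By the authors' fold enrichment, the ratio of pileup to local background, the order was the other way: the median was 8.31 for the 7 and 11.2 over all genes, and each of the 7, from 4.35 to 10.3, lay below 11.2. The lists of related genes described below had median folds under 8.31, so a fold below 11.2 was not particular to these factors.

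Utf1 had the tallest start peak, with a pileup of 113 (93.1 to 136) at chr7:139943613-139944497 and its summit 45 bp upstream of the start. Zic2 followed at 112 (92.2 to 135) at chr14:122474047-122476433, with the summit 192 bp outside the gene's lower-coordinate end. Of all genes with a start peak, 19.2% reached the pileup of Utf1 and 19.7% that of Zic2. Tcf15 reached 75 (58.99 to 94.01) at chr2:152143178-152144144, 475 bp inside its lower-coordinate end. Zic5 reached 74 (58.1 to 92.9) at chr14:122463891-122465823, 32 bp inside its start, and Pou3f1 reached 69 (53.7 to 87.3) at chr4:124656807-124659291. The intervals of neighbours in this order overlap from Utf1 down to Pou3f1.

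Otx2 and Zic1 had lower start peaks, each with a pileup of 29 (19.4 to 41.6), an interval that lies below that of Pou3f1. Of all genes with a start peak, 84.2% had one at least as tall. The Otx2 peak, chr14:48666052-48666967, lies between annotated starts, inside the gene, and its summit is 1079 bp from the nearest of them. It is lost as a start peak when the window is narrowed to 500 bp or the summit must lie within 1 kb. The Zic1 peak, chr9:91364407-91365442, lies inside the gene with its summit 734 bp from the start. Zic4 had no peak within 1 kb of its RefSeq start. The lower-coordinate end of the annotated Zic4 span overlaps Zic1 by 138 bp, and with both annotated ends of every gene used, the Zic1 peak counted for Zic4 as well and 8 of 8 genes had one.

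**Figure D2:**
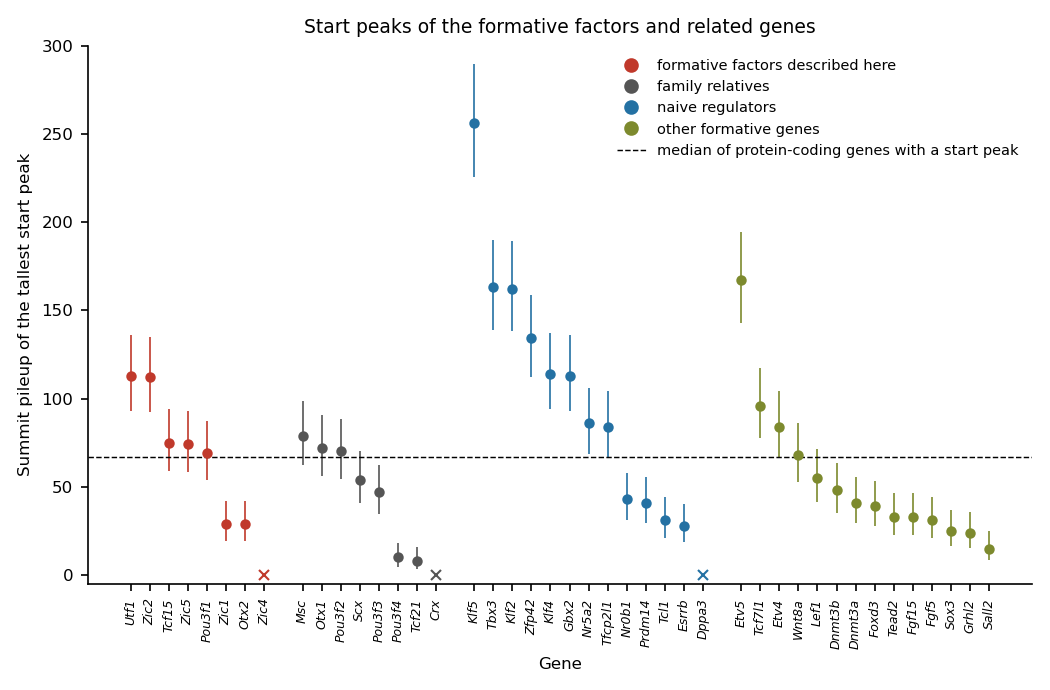
Summit pileup of the tallest start peak of each gene with its exact Poisson 95% interval, for the 8 formative factors, their family relatives, naive regulators and other formative genes. Crosses at 0 mark genes without a start peak, and the dashed line marks 67, the median of all protein-coding genes that have one. For genes without a strand, a peak at either gene end counts as a start peak. Utf1 and Zic2 stand at 113 and 112, Otx2 and Zic1 at 29.

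The start peaks of Pou3f1 and Zic2 were among the widest in the library. They covered 2485 and 2387 bp, and peaks of 2 kb or more made up 0.375% of all peaks on chromosomes. The Zic5 start peak was 1933 bp wide, a width that 0.473% of all peaks reached. Both shares are over peaks of every kind, whose median width was 487 bp. Such widths were not particular to these factors. Among the other formative genes, Dnmt3a and Sox3 had start peaks of 2524 and 2448 bp, with either gene end used for Sox3. The median of that list was 1325 bp. The start peaks of Utf1, Otx2, Tcf15 and Zic1 were 885, 916, 967 and 1036 bp wide, beside a median of 910 bp over all genes with a start peak. Zic2 and Pou3f1 thus share a wide start peak but differ in height, with intervals that do not overlap.

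The Otx2 window held 8 peaks and no other protein-coding gene. Otx2, a homeodomain factor, lies on the minus strand at chr14:48656781-48667644. The tallest peak had a pileup of 50 (37.1 to 65.9) and a fold enrichment of 14.6, at chr14:48700919-48701585, 33.5 kb upstream of the outermost start and within the annotated lncRNA Otx2os1. Next came 47 (34.5 to 62.5) at chr14:48654472-48655704, 1.61 kb beyond the 3′ end of the gene. A peak of 23 (14.6 to 34.5) lies further upstream, at chr14:48709487-48710046, again within Otx2os1. The remaining 5 had pileups between 8 and 29, and 27.9 kb on the downstream side held no peak. Both of the tallest Otx2 peaks exceeded the start peak in pileup, but their intervals overlap its own.

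The Pou3f1 window held 10 peaks, and the tall ones lay at neighbouring genes. Pou3f1, a POU domain factor without strand in the tables used here, spans chr4:124657646-124660655. Apart from the start peak, the peaks nearest to Pou3f1 itself had pileups of 8, 16 and 13. The tallest in the window, 126 (105 to 150) at chr4:124708601-124709498, overlaps the higher-coordinate end of Fhl3, which encodes a LIM domain protein. Peaks of 86 (68.8 to 106) and 84 (67.0 to 104) lie at an end of Utp11, a ribosome biogenesis gene, and at an annotated start of Fhl3. The other peaks of the window had pileups of 28, 14 and 12. The peak of 86 at Utp11, 35.98 kb from the lower-coordinate end of Pou3f1, was the nearest other peak with a pileup of at least 20 in the window.

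The Tcf15 window was the richest of the 6 loci, with 17 peaks. Tcf15 spans chr2:152143056-152149097. The tallest peak of all 71 lies here, with a pileup of 159 (135 to 186) at chr2:152177131-152177868, outside annotated genes and 28.3 kb beyond the higher-coordinate end of Tcf15, the nearest protein-coding gene. Only 1.17% of all peaks on chromosomes were as tall. A peak of 54 (40.6 to 70.5) lies beside it, 31.5 kb beyond the gene. The next tallest were 89 (71.5 to 110) at an end of Scrt2, which encodes a zinc finger repressor of neural cells, and 80 (63.4 to 99.6) at chr2:152111854-152112388, 0.693 kb from Srxn1, a sulfiredoxin gene whose start peak reached 53. Beside the peak of 75 described above, a smaller one of 36 (25.2 to 49.8) lies 930 bp outside the same end of Tcf15 and one of 14 (7.65 to 23.5) near the other end.

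The Utf1 window held 15 peaks, and its 3 tallest lay within 7 kb of the start. Utf1 is a short gene of 1257 bp at chr7:139943856-139945112. After the start peak of 113 came 100 (81.4 to 122) at chr7:139945492-139946132, 0.631 kb beyond the 3′ end, and 84 (67.0 to 104) at chr7:139949707-139950831, 5.49 kb beyond it and inside the lncRNA Gm16201. The intervals of these 3 overlap. The next, 74 (58.1 to 92.9) at chr7:139915476-139916065, lies inside Kndc1, 28.0 kb upstream. Peaks at the starts of other genes in the window had pileups of 53 at Spef1l, 21 at Kndc1 and 11 at Adam8. One of 27 lies near an end of Tubgcp2, whose tallest start peak, of 148, lies outside the window. A peak of 11 (5.49 to 19.7) overlaps the microRNA genes Mir202 and Mir7686, 13.9 kb downstream of the Utf1 start.

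**Figure D3:**
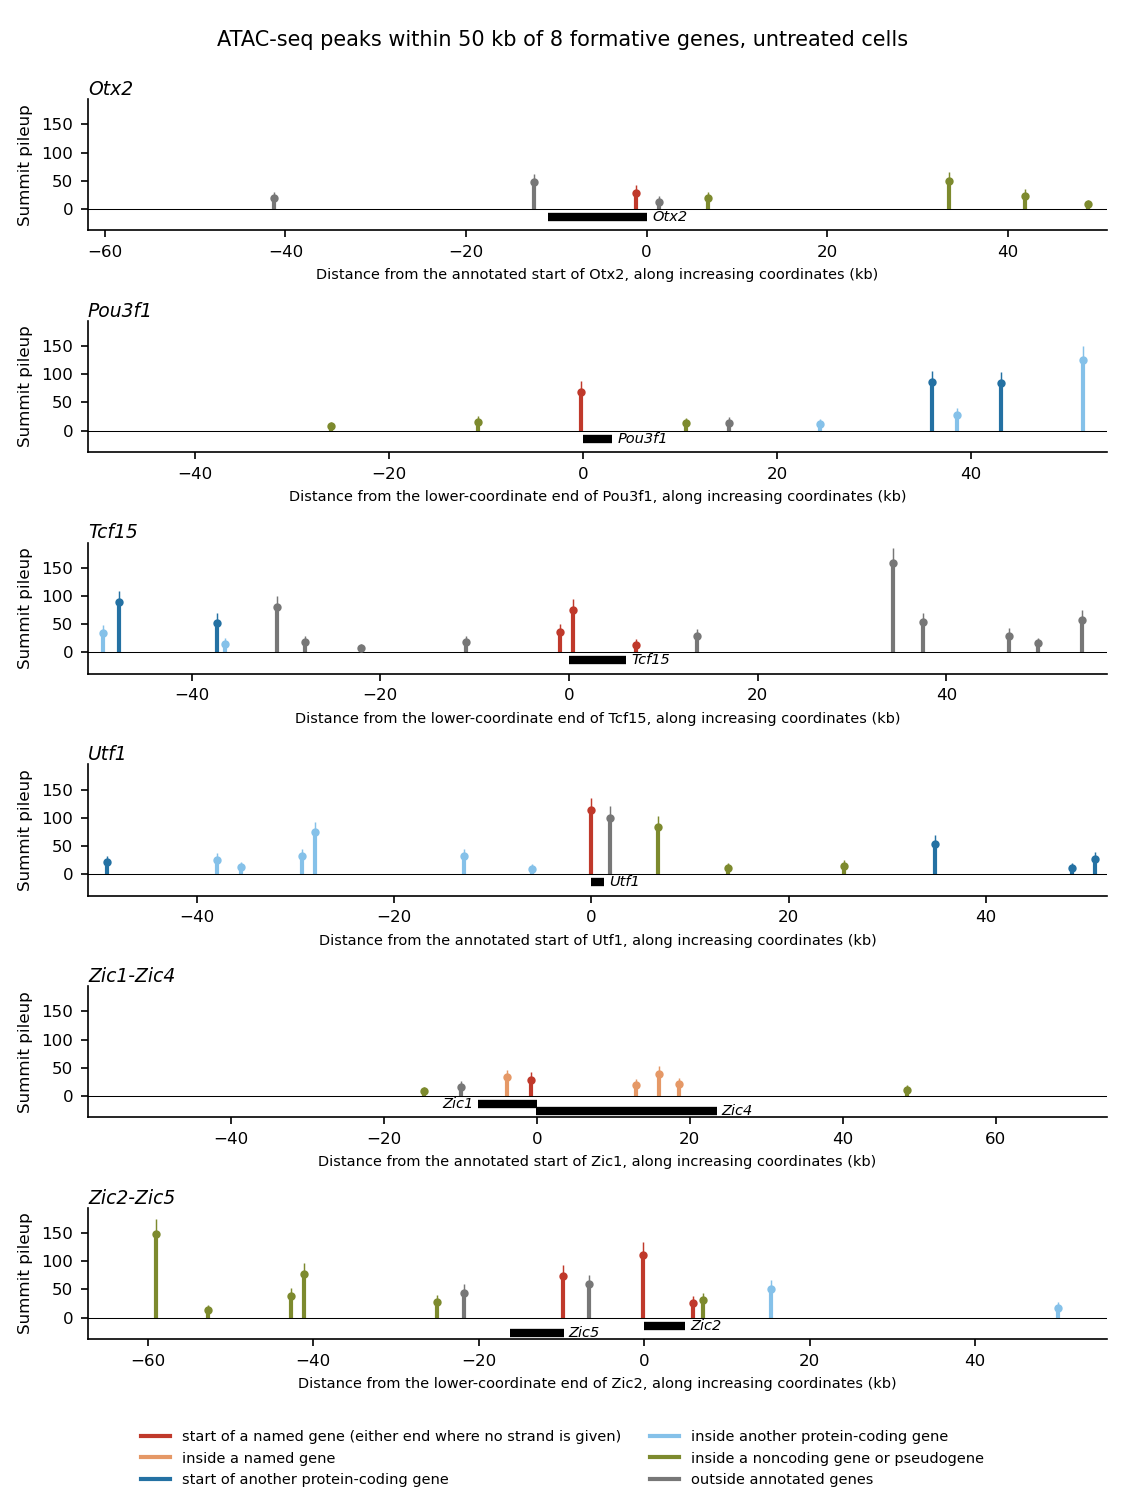
Summit pileup (vertical axis) of each of the 71 peaks in the 6 loci against distance in kb from the annotated start or, without strand, from the lower-coordinate end of the named gene, with exact Poisson 95% intervals. Black bars are gene spans and colours give the position relative to annotated genes. The tallest peak, at 159, lies 34.3 kb to the right of Tcf15's lower-coordinate end, and no peak of the Zic1-Zic4 locus exceeds 39.

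The 2 Zic pairs, which share their head-to-head arrangement, differed in accessibility. The Zic2-Zic5 locus held 13 peaks with a median pileup of 44 and a highest of 149. The Zic1-Zic4 locus held 8 with a median of 20 and a highest of 39. Of the 13, only 8 had Zic2 or Zic5 as the nearest protein-coding gene, the tallest of them at 112. All 8 of the Zic1-Zic4 locus had Zic1 or Zic4 as the nearest. Counted that way, the loci differed in the height of the tallest peak but not in number. Zic2 and Zic5 shared 10 peaks, 90.9% of those of Zic2 and 83.3% of those of Zic5, and Zic1 and Zic4 shared all 8. The start peak of Zic2 at 112 (92.2 to 135) and that of Zic5 at 74 (58.1 to 92.9) have intervals above that of Zic1 at 29 (19.4 to 41.6). With 1 library no test of the loci was possible.

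In the Zic2-Zic5 locus, the space between the start peaks held a further peak of 59 (44.9 to 76.1) at chr14:122468087-122469214, 3.08 kb from the Zic5 start. The tallest peak of the locus, 149 (126 to 174.9) at chr14:122416022-122416979, lies in the window of Zic5 alone, 49.2 kb from its start and inside the lncRNA Gm5089, and the nearest protein-coding gene is Clybl. Also inside Gm5089 is a peak of 77 (60.8 to 96.2) at chr14:122433851-122434485, 24.9 kb beyond Zic5. On the Zic2 side a peak of 51 (38.0 to 67.1) at chr14:122490558-122491286 lies inside Pcca, which encodes a subunit of propionyl-CoA carboxylase. Its fold enrichment of 13.9 was the highest of this locus.

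In the Zic1-Zic4 locus, the tallest peaks lay inside the 2 genes. Inside Zic4 (chr9:91365631-91389351) were 3 peaks of 39 (27.7 to 53.3), 21 and 19, the first at chr9:91381356-91382033. Inside Zic1 (chr9:91358058-91365768) was one of 33 (22.7 to 46.3) at chr9:91361664-91362498, besides the start peak. Outside the 2 genes the pileups were 16, 11 and 8. On the Zic4 side the next peak of the library lies 179.6 kb beyond the window's edge, and on the Zic1 side it lies 45.7 kb beyond.

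By number of peaks, all 8 genes lay above the median of 7 peaks per window over all protein-coding genes, as did 47.9% of those genes. The counts were 8 for Otx2, Zic1 and Zic4, 10 for Pou3f1, 11 for Zic2, 12 for Zic5, 15 for Utf1 and 17 for Tcf15, with a median of 10.5. At least 17 peaks were found for 6.93% of genes and at least 15 for 12.1%, but at least 8 for 47.9%. The windows held 105 peaks per Mb (exact Poisson 95% interval 82.3 to 133), beside 28.7 over all chromosomes. That comparison sets windows centred on genes against sequence of every kind, and the gene-centred counts are the closer yardstick. The windows also hold other protein-coding genes, 3 for Utf1, 2 each for Tcf15, Pou3f1, Zic2 and Zic5, 1 each for Zic1 and Zic4 and none for Otx2, and 39 of the 71 peaks had a named factor as the nearest protein-coding gene. What part of the counts comes from neighbours was not tested.

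**Figure D4:**
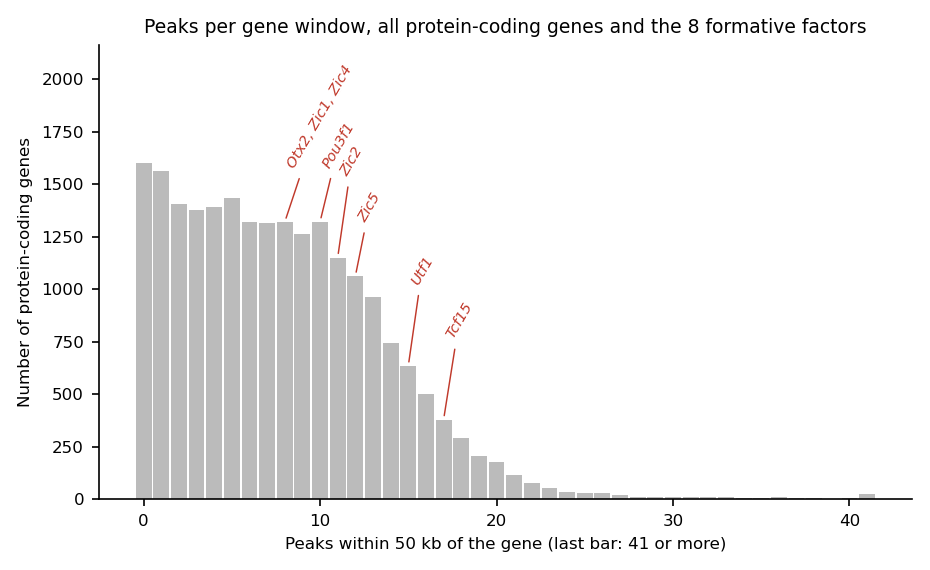
Number of protein-coding genes (vertical axis) by the number of peaks within 50 kb of the gene (horizontal axis). Labels mark the 8 formative factors, from 8 peaks for Otx2, Zic1 and Zic4 to 17 for Tcf15, and the median gene had 7.

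By position, 10 of the 71 peaks lay at a start of the 8 genes (or at either end where strand was not given), 4 elsewhere inside them, 8 at starts of other protein-coding genes and 13 inside those. A further 18 lay in noncoding genes or pseudogenes only and 18 outside annotated genes. The median pileup was 52.5 for the 10 and 53 for the 8, against 17.5 in noncoding genes and 29.5 outside genes. The gene table has no exons, so exonic and intronic peaks were not told apart. Pileups of 45 or more, the upper quartile of all peaks, were found in 24 of the 71 (33.8%), against 25.3% of all peaks, and of 20 or more in 45 (63.4%), against 58.1%. At the outer limits of the windows, the 12 innermost peaks beyond the 50 kb edges had pileups from 11 to 148 (median 27) and the 12 outermost within them had pileups from 8 to 149 (median 20).

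Pileup and fold enrichment ordered the peaks differently. Fold enrichment is the authors' ratio of the pileup to the local background, and it describes peaks within this list only. The local background ranged from 1.3, the genome-wide value, to 18.4 beside Utf1, with a median of 4.09 for the 71 peaks and 2.12 for all peaks on chromosomes. The Utf1 peak of 100 therefore had a fold of 5.21 and the Zic5 start peak of 74 one of 4.42, while the Otx2os1 peak of 50 had one of 14.6. The highest fold of the 71 was 15.6, at Utp11, and the tallest peak, near Tcf15, ranked only 14 by fold. Of the 10 highest by pileup and the 10 highest by fold, 2 were the same.

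**Figure D5:**
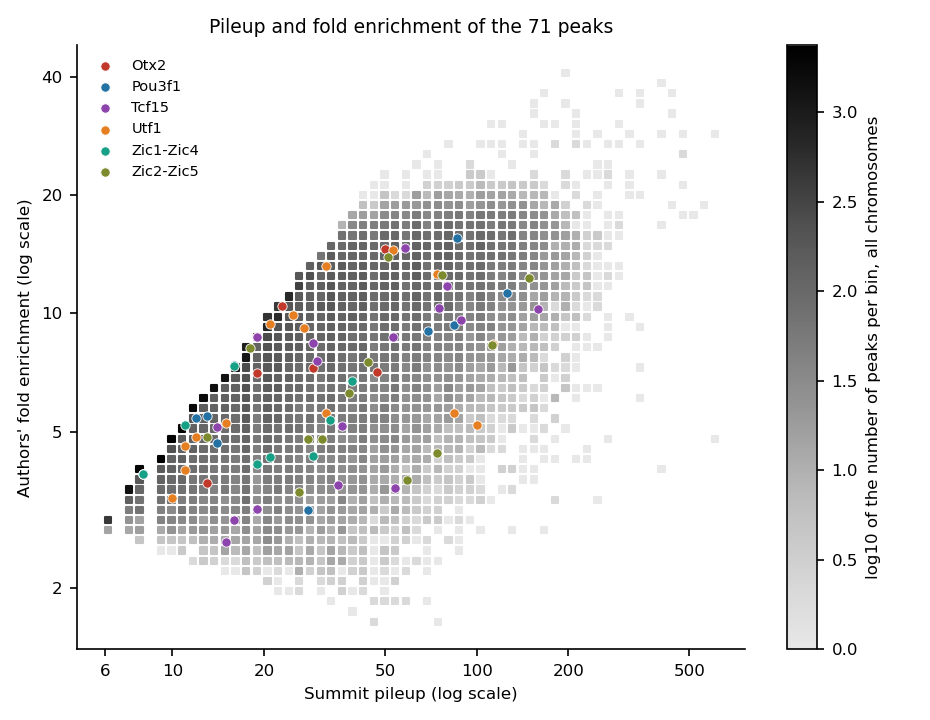
Authors' fold enrichment against summit pileup, both on log scales, for the 71 peaks coloured by locus, over a grey grid of all peaks on chromosomes with pileups up to 630. The Zic1-Zic4 peaks have pileups of 39 or less, 22 peaks beyond the plotted range are not drawn, and the 2 tallest peaks, at 159 and 149, belong to the Tcf15 and Zic2-Zic5 loci.

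Related genes were described in the same way. Of 8 family relatives (Otx1, Crx, Pou3f2, Pou3f3, Pou3f4, Scx, Msc and Tcf21), 7 had a start peak, with a median pileup of 54 and a median of 5 window peaks. Over all protein-coding genes, 66.7% had a start peak, with medians of 67 and 7. Otx1 reached 72 (56.3 to 90.7), Pou3f2 70 (54.6 to 88.4) and Pou3f3 47 (34.5 to 62.5). The interval of Otx1 lies above that of Otx2, but Otx1 lacks a strand here and its peak may lie at either gene end. X-linked Pou3f4 had 10 (4.795 to 18.4) and Crx, a photoreceptor factor, none. The helix-loop-helix genes Msc, Scx and Tcf21 had 79, 54 and 8, with either gene end used for Msc and Scx.

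All 14 other genes of the formative state had a start peak, with a median pileup of 40 and a median of 12.5 window peaks. Etv5 and Tcf7l1, an ETS factor and a repressor of naive genes, were highest at 167 (143 to 194) and 96 (77.8 to 117), and Fgf5, a common marker of the state, had 31 (21.1 to 44.0). Of 13 naive regulators 12 had a start peak, all but Dppa3, with a median of 99.5 and 12 window peaks. Klf5 and Tbx3 led at 256 and 163, but both lack a strand here, so these peaks may lie at either gene end. In 12 primitive streak and early mesoderm genes the median was 35, led by Tbx6 and Eomes at 60 and 57. In 11 proneural genes it was 41, led by Neurog2 and Atoh1 at 82 and 76. All genes of the last 2 lists had a start peak, beside 66.7% of all protein-coding genes. Of the lists in this paragraph, only the naive regulators had a median pileup above 67, the median of all genes with a start peak. The median fold of the start peaks was 6.89 in the other formative genes, 7.61 in naive regulators and 7.33 in the family relatives. It was 6.73 in the primitive streak and early mesoderm genes and 5.62 in the proneural genes. No test of these differences was made, since the genes of 1 library are not replicates.

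Markers of the labelled cell type were accessible, but a start peak alone did not set them apart from the germ-layer markers. All 7 embryonic stem cell markers (Pou5f1, Sox2, Nanog, Klf4, Zfp42, Esrrb and Tfcp2l1) had a start peak, with a median pileup of 114. Klf4, Zfp42, Esrrb and Tfcp2l1 are also among the naive regulators above. The germ-layer markers T and Sox1 are also in the primitive streak and proneural lists, so these lists are not independent. Among fibroblast markers 3 of 5 had one (median 22), with none at Acta2 and Col3a1. The 5 germ-layer markers all had one, with a median of 28. Over all protein-coding genes, 66.7% had a start peak, with a median pileup of 67. Heights overlapped between the lists, as Esrrb (28) and Nanog (58) lay below Sox17 (62). Sox17 lacks a strand here, so its peak may lie at either gene end. The other stem cell markers lay above Sox17, from 84 at Tfcp2l1 to 152 at Pou5f1.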

How the data were processed

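ATAC-seq peaks of the untreated 0 h library were used, with the group taken from the sample title. The submitters' processing notes name MACS2 2.2.6 (a peak caller) and Bowtie2 2.3.4.1 (an aligner), with the builds mm10 and GRCm38.p6. They also list deepTools 3.2.1 and SAMtools 1.9, and bcl2fastq 2.20.0.422. The sources used here do not give read filters, duplicate handling or any Tn5 shift, and intervals cover counting error only, since PCR duplicates may be counted. The deposited list gives a score (10 times -log10 q, rounded down), the authors' fold ratio, -log10 p and -log10 q (lowest 1.3) and a summit offset. Total depth is not given. Summit pileups were solved from fold = (pileup + 1)/(background + 1) and the Poisson -log10 p, and were whole for 77629 of 77629 peaks (tolerance 0.01). Where the background was 1.3, its genome-wide level, no listed peak had a pileup under 6, and lower sites were not detectable. Functions were tested on simulated data.

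Gene spans, biotypes and promoter windows came from RefSeq tables of GRCm38.p6. Starts were the annotated starts where the promoter table gave a strand (17491 of 21883 protein-coding genes), otherwise both gene ends. Any overlap of at least 1 bp put a peak in a window. The rule named the 8 genes, each one's tallest start peak and its 3 tallest other peaks, neighbours with start peaks in the windows, the family relatives (1 of the list is not reported here), and from each list the 2 genes with the highest start pileup and up to 2 without a start peak. Other peaks and genes in the text were named after their values were seen. The genes and lists were chosen with earlier results of these data known. With 1 library no p-value was computed. Scripts ran in Python 3.11.15 with scipy 1.17.1, pandas 2.3.3, matplotlib 3.10.9 and numpy 2.4.6.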

Additional observations from a re-analysis of the deposited data

How the results depend on the processing

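Of 48 alternative values, 34 stayed within 1.5 times a count or inside the interval of the value reported, and 14 did not. The 71 peaks became 34 within 20 kb, 39 with a formative factor as nearest protein-coding gene and 45 with a pileup of at least 20. They were 60 at a -log10 q of at least 5, 71 with the summit in the window and 92 within 100 kb. Peaks per Mb were 72.2 within 100 kb, and the median per window was 6.0 within 20 kb and 16 within 100 kb, where all genes had medians of 4 and 12. Genes with a start peak numbered between 6 and 8, and their median pileup lay between 71.5 and 74.5. Ranking the peaks away from the start by fold in place of pileup put other peaks on top, with pileups of 86 for Pou3f1, 16 for Zic1 and Zic4, 51 for Zic2 and Zic5, 58 for Tcf15 and 53 for Utf1. By -log10 q the Utf1 value was 74. The fold divides by the local background, so the order by fold follows from it. The settings with both gene ends, with each Zic pair as 1 window and without starts of all genes were chosen after seeing the data. No paired analysis was possible because 1 library was analysed. A single library leaves the spread between cultures unknown.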

Other observations

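Zic1 belongs to a small set of genes with CpG-rich promoter windows that no peak overlapped. Of 3837 promoter windows with 30 or more CpG, 62 were not overlapped, and 45 genes had such a window and no overlapped one at another start. For 30 of the 45 a peak lay within 1 kb of such a window, as for Zic1 at 277 bp, and the median over the 45 genes, taking the nearest such window of each, was 288 bp. The set also includes the developmental genes Ptch1 (280 bp) and Epha8, whose nearest peak was 10751 bp away, and Ski (23 bp). The 3 were picked after their values were seen.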
